A study of Mus musculus with 12 samples.

Results

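The response of control B16-F10 mouse melanoma cells to interferon-γ (IFNγ) was followed across all measured genes, to find which gene programmes rose and fell beside those of antigen presentation. The comparison used 6 of the 12 RNA-seq libraries of the study, 3 from untreated and 3 from IFNγ-treated NTC cells, and every gene with at least 1 TPM (transcripts scaled to the size of a library) in at least 3 of the 12 libraries, which left 11663 of 23022 listed genes. All cells came from 1 Cas9-expressing clone of B16-F10, a melanin-producing melanoma line of C57BL/6 mice, and NTC cells carried a lentivirus with a pair of control guide RNAs. The study describes the guide-carrying cells of these first experiments as polyclonal, with uneven loss of the MBNL proteins in the knockouts. The sample labels spell NTC as no template control and the study as a non-targeting control. Treated cells received 1 ng/mL IFNγ for 24 h and untreated cells received none. The other 6 libraries were from DKO cells, the same clone with guide RNAs against *Mbnl1* and *Mbnl2*, untreated or treated in the same way. *Mbnl1* stood at 55.6 to 63.9 TPM in the NTC and 41.1 to 47.5 TPM in the DKO libraries, so its mRNA was lower but not absent. The DKO libraries entered the estimate of the spread, and their own response is set beside that of the NTC cells. The labels number the replicates but do not say whether they were separate cultures, so p-values measure the spread between these libraries, which may be technical. In bulk RNA, fewer cells of a kind and less RNA per cell cannot be told apart.

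IFNγ binds a receptor made of IFNGR1 and IFNGR2 chains, which activates the kinases JAK1 and JAK2 and through them transcription factors of the STAT family. These bind gamma-activated sites (GAS), and the factors they induce, IRF1 among them, act on interferon-stimulated response elements (ISRE). The best-known outputs are antigen presentation, the interferon-inducible GTPases of cell-autonomous defence, antiviral effectors, and in many tumour cells chemokines, PD-L1 and slower growth.

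A TPM value is a share of the library, corrected for transcript length, and does not carry the read depth. The listed genes summed to between 844185 and 874612 TPM in NTC libraries. The median SD between replicates on the log2(TPM + 1) scale was 0.0715 in untreated and 0.0789 in treated libraries. In a principal component analysis of the 6 libraries, component 1 held 49.5% of the variance and separated treated from untreated cells. The 7 melanocyte markers summed to between 16647 and 17554 TPM in untreated and between 18049.7 and 18643 TPM in treated libraries. The 16 immune markers summed to at most 6.57 TPM in any of the 6 libraries and 8 of them, among those *Ptprc* and *Cd3e*, were listed at 0 in all 6. For 11 stromal and endothelial and 8 epithelial markers the highest sums were 7.79 and 1.14 TPM.

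With limma on log2(TPM + 1), 853 genes were higher with IFNγ and 558 lower at an adjusted p-value under 0.05, 7.31% and 4.78% of the genes tested. These calls followed the base composition of the transcripts. Exonic GC content was measured for 11563 tested genes, and over these the log2 fold change had a Spearman correlation of −0.617 with it, a description across genes that share the same 6 libraries. Over 10 equal bins of genes, the median log2 fold change in the bin of lowest GC content was 0.15, with 215 genes called higher and 4 lower. In the bin of highest GC content it was −0.20, with 4 genes called higher and 265 lower. The DKO response had a correlation of −0.181. A smooth trend of each library with GC content and transcript length was therefore removed, after which the medians of the 10 bins lay between −0.0033 and 0.010, and 294 genes were called higher (2.52%) and 186 lower (1.59%).

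**Figure D1:**
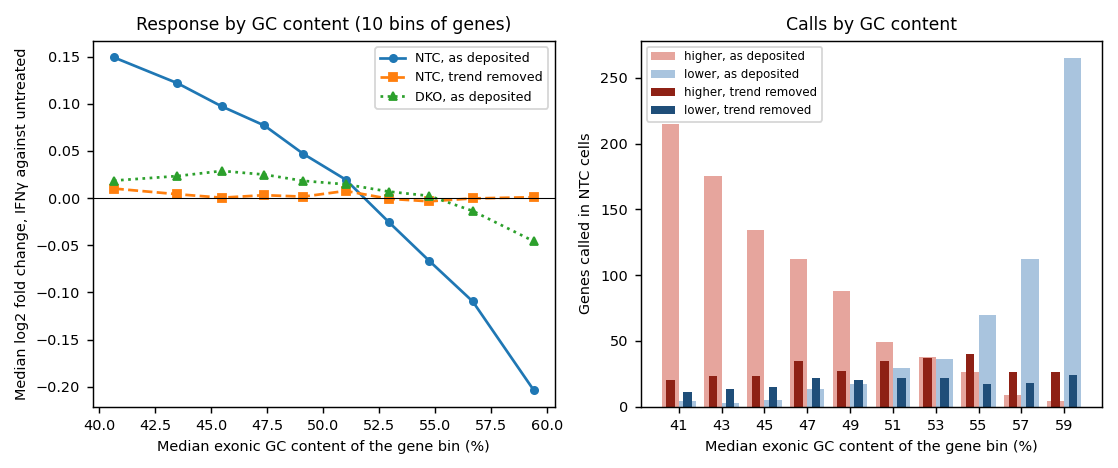
Left, median log2 fold change with IFNγ for 10 equal bins of tested genes, placed by their median exonic GC content in percent, for NTC cells as deposited, NTC cells with the GC and length trend removed, and DKO cells as deposited. Right, genes called higher and lower in each bin in NTC cells, as deposited (wide, pale bars) and with the trend removed (narrow, dark bars). As deposited, the NTC medians run from 0.15 to −0.20 and the calls change sides with GC content.

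Genes called in the same direction both ways, as deposited and with the trend removed, numbered 232 higher (1.99%) and 144 lower (1.23%), and no gene was called in opposite directions. All 232 higher genes and 142 of the lower genes had treated libraries that did not overlap the untreated ones. Selection on the same libraries made this likely, so it is no separate support for the calls. Over all tested genes, 21.8% did not overlap in the higher and 14.7% in the lower direction. Leaving out 1 NTC library left 153 to 220 of the 232 and 58 to 129 of the 142 called as deposited, fewest without treated replicate 3. Where a gene below is said to be called in a number of the 12 fits without 1 library, 6 of these leave out a DKO library. Those 6 leave the NTC fold change unchanged and alter only the estimate of the spread. The 621 genes called higher only as deposited had a median GC content of 44.0%, and the 414 called lower only as deposited had 58.4%. Below, a gene is said to have risen or fallen only where it was called both ways, the log2 fold change (log2 change in brackets) printed first is as deposited, and other genes are given by their values. What the trend reflects was not tested.

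The larger changes were increases. Of the 232 risen genes, 44 had a log2 fold change of 1 or more, with a median of 1.59. Among the 15 fallen genes with the largest change, 4 low-expressed ones, *Gfra4*, *Ccdc169*, *Cldn10* and *Spink10*, were listed at 0 in all treated libraries and between 0.939 and 1.51 TPM in untreated libraries.

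**Figure D2:**
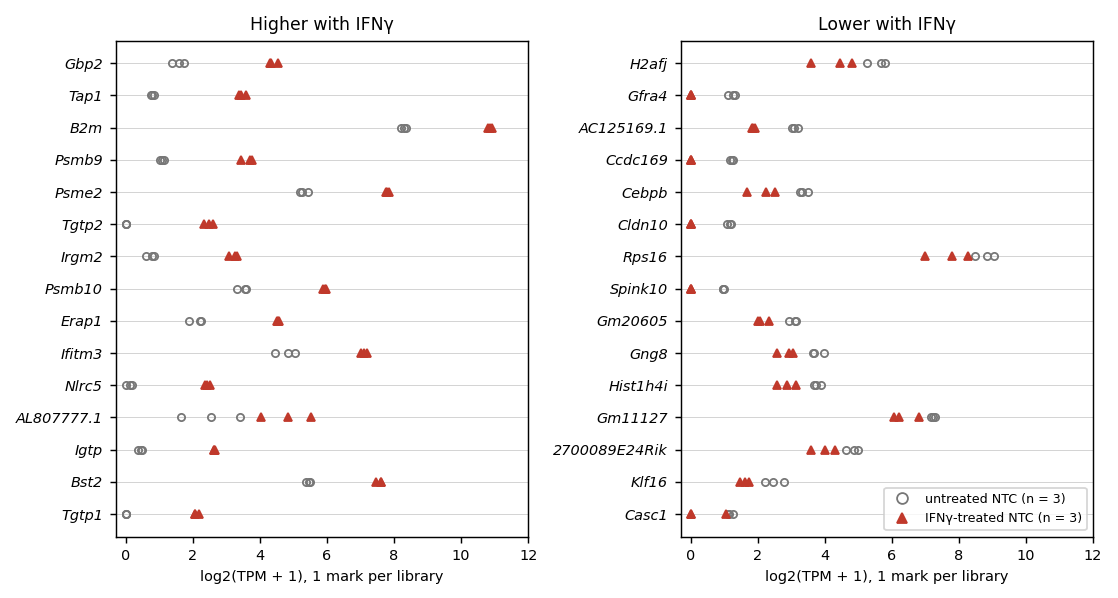
The 15 genes with the largest log2 fold change in each direction among those called both ways whose groups do not overlap. The x axis is log2(TPM + 1), with 1 mark for each of 3 untreated (open circles) and 3 IFNγ-treated (filled triangles) NTC libraries. Treated marks lie above every untreated mark for the genes on the left and below every untreated mark for those on the right.

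Of the 23 tested receptor and JAK-STAT genes none fell, where 0 were lower at an unadjusted p under 0.05 with limma. *Nmi* and *Ifi35*, which encode interferon-induced partners in 1 complex, rose by 1.10 (adjusted p = 1.84e-05) and 0.89 (adjusted p = 0.000152). *Stat3* went from 23.6, 23.8 and 23.7 to 31, 31.1 and 32.1 TPM (log2 change 0.39, SE 0.0456, adjusted p = 0.000168), a small change with little spread. *Stat2*, a transcription factor of type I interferon signaling, rose by 0.36 (adjusted p = 0.0309) and was called in 6 of the 12 fits without 1 library.

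The receptor and kinases had values close to the untreated ones. *Ifngr1* stood at 19.1, 16.9 and 17.7 TPM untreated and 16.4, 16.9 and 16.3 TPM treated (log2 change −0.11, adjusted p = 0.3). *Ifngr2*, *Jak1* and *Jak2* had values of 0.092, 0.082 and 0.15, with adjusted p-values of 0.381, 0.223 and 0.191. The feedback inhibitor *Socs3* was at −0.27 (adjusted p = 0.427), and *Socs1* was under the filter at no more than 0.756 TPM. Over the 23 genes the median log2 fold change was 0.015, beside 0.019 for all tested genes.

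Among transcription factors of the IRF family and the class I and class II transactivators, 4 of 13 tested rose (30.8%, beside 1.99% of all). Of the 13, 1 reached 1 TPM in treated libraries only and passed the filter through them alone. *Nlrc5*, the transactivator of class I genes, went from 0, 0.147 and 0.0927 to 4.32, 4.12 and 4.66 TPM (log2 change 2.31, SE 0.105, adjusted p = 5.05e-09). It was low before treatment and above 4 TPM in each treated library. *Irf1* stood at 8.24, 8.19 and 8.2 TPM untreated and 19.6, 18.5 and 19.7 TPM treated (log2 change 1.14, SE 0.0712, adjusted p = 2.1e-07). *Irf9*, a DNA-binding factor of type I interferon signaling, went from 3.3, 3.98 and 3.67 to 10.7, 9.62 and 10.8 TPM (log2 change 1.29, SE 0.0786, adjusted p = 1.59e-07). Treated and untreated libraries were far apart in both genes, with values of 1.17 and 1.29 once the trend was removed. *Batf2* rose by 0.71 at no more than 1.66 TPM (adjusted p = 0.042) and was called in only 4 of the 12 fits without 1 library. *Irf3* had a value of −0.32 (adjusted p = 0.0139 as deposited and 0.0723 with the trend removed) and *Irf7* one of 0.35 (adjusted p = 0.0699). *Ciita*, the class II transactivator, was listed at 0 in all 6 libraries. Of 12 class II genes, 3 passed the filter and none was called (1 higher and 0 lower at an unadjusted p under 0.05), 6 were listed at 0 throughout, *H2-Aa* and *H2-Ab1* among them, and *H2-DMa* reached 0.85 TPM.

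Class I antigen presentation rose in 17 of 21 tested genes, 81.0% beside 1.99% of all tested genes. Of the 21, 2 reached 1 TPM in treated libraries only and passed the filter through them alone. The median log2 fold change was 1.26 over the 20 genes that leave out *Psmb8*, which was listed at 0 in untreated libraries. Beyond the transporter, proteasome and B2m genes, *Erap1*, the peptide-trimming enzyme of the endoplasmic reticulum (ER), went from 3.63, 3.71 and 2.73 to 21.7, 22.1 and 22.9 TPM (log2 change 2.42, SE 0.105, adjusted p = 3.51e-09). The peptide editor *Tapbp* rose by 2.01 and its relative *Tapbpl* by 0.55. Among heavy chains, *H2-T22*, *H2-K1*, *H2-Q4* and *H2-T23* rose by 1.39, 1.12, 0.94 and 0.62. Reads of these near-identical paralogs may have been split between them in counting.

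The interferon-inducible GTPases had the highest median of the 44 lists, and 10 of 12 tested genes rose, 83.3% beside 1.99% of all tested genes called both ways. The median was 2.01, and 1.74 over the 10 genes that leave out the 2 listed at 0 in untreated libraries. Of the 12 genes, 4 reached 1 TPM in treated libraries only, so they could be tested only because they were induced, and another 10 stayed under the filter, the highest being *Iigp1* at 0.851 TPM. As deposited, 10 genes were called higher in each fit that left out 1 of the 12 libraries. Guanylate-binding proteins (GBPs) and immunity-related GTPases (IRGs) coat the vacuoles of intracellular microbes.

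Of the IRGs, *Irgm2* went from 0.535, 0.783 and 0.714 to 8.56, 7.47 and 8.9 TPM (log2 change 2.47, SE 0.0993, adjusted p = 1.56e-09). *Igtp* stood at 0.301, 0.396 and 0.38 TPM untreated and 5.23, 5.27 and 5.23 TPM treated (log2 change 2.20, SE 0.131, adjusted p = 1.3e-07), with 3 nearly equal treated libraries. *Irgm1* went from 4.26, 5.04 and 5.54 to 24.2, 22.2 and 25.6 TPM (log2 change 2.07, SE 0.0929, adjusted p = 4.72e-09). In all 3 of these regulatory IRGs the treated libraries lay far above the untreated ones, though the annotated spans of *Igtp* and *Irgm2* overlap on the same strand and their reads may be shared. Of the effector IRGs, *Tgtp1* and *Tgtp2* were listed at 0 in all untreated NTC libraries. *Tgtp1* reached 3.52, 3.17 and 3.2 TPM and *Tgtp2* 4.09, 4.54 and 5.1 TPM with treatment, and since the 2 genes are near-identical copies, the split between them is uncertain. *Ifi47* rose by 1.96 (adjusted p = 7.16e-07). Of the GBPs, *Gbp3* went from 1.69, 1.35 and 1.7 to 5.92, 7.12 and 6.21 TPM (log2 change 1.52), and *Gbp6* and *Gbp7* rose by 1.31 (adjusted p = 8.13e-05) and 1.26 (adjusted p = 1.14e-05).

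The promoters of these genes were read from RefSeq windows of 250 bases before to 50 after each gene start (build GRCm38.p6), to show what the strongest risers share that the selection did not use. Searched on both strands were TTCNNNGAA (GAS) and GAAANNGAAA (the ISRE core), which may overlap. Of the 44 genes with a log2 fold change of 1 or more, 37 matched 42 windows. GAS letters were in 21.4% of these and ISRE letters in 47.6%, against 8.30% and 3.44% of all 32851 windows. The 188 smaller risers, 139 of them matched, had 7.45% and 9.04%, and the fallen genes, 99 of 144 matched, had 5.98% and 3.42%. In *Irgm2*, *Igtp*, *Tgtp1* and *Tgtp2* the GAS letters were followed by ISRE letters that began 11 bases later. That arrangement was in 5 of all 32851 windows, these 4 and *Gm12185*, which was under the filter, and all 5 lay on chromosome 11. The 4 genes are related IRGs whose flanking letters are alike too, most closely in *Irgm2* and *Igtp*. Their windows may therefore not count as separate occurrences. The 4 windows are shown first, with *Irf1* for a GAS alone and *Gbp2*, *Irgm1* and *Isg15* for ISRE letters alone. Each is given 5′ to 3′ on the strand of its gene, with matched letters in capitals.
Irgm2, chr11:58214882-58214942, plus strand: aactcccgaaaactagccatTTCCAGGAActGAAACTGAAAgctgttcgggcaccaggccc
Igtp, chr11:58199491-58199551, plus strand: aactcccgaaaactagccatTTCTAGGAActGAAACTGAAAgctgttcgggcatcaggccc
Tgtp1, chr11:48992294-48992354, minus strand: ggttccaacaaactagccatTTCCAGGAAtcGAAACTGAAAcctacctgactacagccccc
Tgtp2, chr11:49064253-49064313, minus strand: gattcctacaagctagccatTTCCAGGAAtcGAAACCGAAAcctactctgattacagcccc
Irf1, chr11:53769904-53769952, plus strand: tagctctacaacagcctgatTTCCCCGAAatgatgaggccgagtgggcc
Gbp2, chr3:142620584-142620633, plus strand: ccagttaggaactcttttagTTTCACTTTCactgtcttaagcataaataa
Irgm1, chr11:48871415-48871470, minus strand: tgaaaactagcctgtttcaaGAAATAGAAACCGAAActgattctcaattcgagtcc
Isg15, chr4:156200855-156200916, minus strand: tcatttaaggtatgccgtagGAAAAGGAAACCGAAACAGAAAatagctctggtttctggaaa
In *Gbp2* the ISRE letters read on the opposite strand, and in *Irgm1* and *Isg15* overlapping matches run together. Counted from the gene start, the first GAS base lay at −75 in *Irgm2*, −45 in *Igtp*, −88 in *Tgtp1*, −81 in *Tgtp2* and −90 in *Irf1*. A match describes the letters in this window and shows no binding.

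Several of the strongest risers were neighbours in the genome. On chromosome 11, *Irgm1*, *Tgtp1*, *Tgtp2* and *Ifi47* lay between 48861968 and 49096974 with no other tested gene between them, and *Igtp* and *Irgm2* between 58199556 and 58222782. On chromosome 3, *Gbp7*, *Gbp3* and *Gbp2* were likewise neighbours between 142530342 and 142638008. On chromosome 14, *Psme1*, *Psme2* and *Irf9* were 3 of 5 tested genes between 55578123 and 55610030. The MHC region of chromosome 17 held 5 of 21 tested genes between 33915899 and 34201454 and 2 of 26 between 35262730 and 36042747 (GRCm38 coordinates of GENCODE M21). In all, chromosome 11 held 9 and chromosome 17 held 7 of the 44 genes, or 0.956% of 941 and 1.19% of 590 tested genes there, beside 0.377% of all tested genes.

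Antiviral effectors rose in 14 of 33 tested genes (19 as deposited), 42.4% beside 1.99% of all tested genes. None fell or was lower at an unadjusted p under 0.05 with limma. Of the 33, 2 reached 1 TPM in treated libraries only and passed the filter through them alone. *Ifitm3*, which blocks the entry of enveloped viruses, went from 32.1, 21 and 27.5 to 137, 127 and 146 TPM (log2 change 2.33, SE 0.11, adjusted p = 8.46e-09). *Bst2*, or tetherin, which holds budding virus at the membrane, went from 43.9, 40.2 and 42.8 to 194, 193 and 175 TPM (log2 change 2.12, SE 0.0532, adjusted p = 9.6e-12). Both passed 100 TPM in each treated library. The secreted glycoprotein gene *Lgals3bp* rose from 45.5, 48 and 49.4 to 124, 116 and 138 TPM (log2 change 1.38), and *Xaf1*, an antagonist of an apoptosis inhibitor, rose by 1.40 (adjusted p = 3e-07). *Rtp4*, *Ifit3*, *Rsad2* (viperin) and *Ifit1*, genes usually read as type I interferon targets, rose by 1.38, 1.15, 1.04 and 0.93. *Rsad2* went from 5.8, 6.25 and 7.33 to 13.2, 13.8 and 15.8 TPM without overlap. *Oas1a* rose by 0.81, *Lgals9* by 0.69 and *Samd9l* by 0.57. *Eif2ak2* (PKR) and *Cmpk2* had values of 0.46 and 0.51 that were called as deposited and not with the trend removed (adjusted p = 0.0522 and 0.0501). Another 15 genes were under the filter, 6 of them listed at 0 throughout. The median was 0.42 as deposited and 0.33 with the trend removed.

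Sensors of foreign nucleic acid rose in 4 of 13 tested genes, 30.8% beside 1.99% of all tested genes. Of the 13, 1 reached 1 TPM in treated libraries only and passed the filter through them alone. *Zbp1*, a sensor of Z-form nucleic acid, went from 0.338, 0 and 0.38 to 2.47, 2.72 and 3.7 TPM (log2 change 1.68, SE 0.189, adjusted p = 0.000131). The RNA helicase genes *Ifih1* (MDA5) and *Ddx58* (RIG-I) rose by 1.18 (adjusted p = 1.73e-05) and 1.15 (adjusted p = 2.14e-06). *Tlr3*, an endosomal receptor of double-stranded RNA, rose by 0.43, or 0.27 with the trend removed. All 4 had treated libraries above every untreated one, as did all 232 risen genes and 21.8% of all tested genes.

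The ubiquitin-like ISG15 and its conjugation machinery rose with them. *Isg15* stood at 3.42, 4.42 and 3.67 TPM untreated and 13.2, 12.2 and 9.08 TPM treated (log2 change 1.36, SE 0.132, adjusted p = 2.74e-05). Its activating enzyme *Uba7*, conjugating enzyme *Ube2l6* and ligase *Trim25* rose by 0.49, 1.44 and 0.53. The E3 ligase gene *Dtx3l* rose by 0.92 (adjusted p = 0.000408), and its partner *Parp9* went from 5.56, 5.81 and 6.71 to 15.5, 13.7 and 13.7 TPM (log2 change 1.13, SE 0.0934, adjusted p = 5.25e-06). In all, 6 of 15 tested ISG15 and TRIM genes rose (40%, beside 1.99% of all tested genes) and all 15 were above 0. In the PARP family of ADP-ribosyltransferases 4 of 16 rose, 25% beside 1.99% of all tested genes. These were *Parp12* by 1.45, *Parp9* by 1.13, *Parp14* by 0.82 and *Parp10* by 0.77. Of the 16, 1 reached 1 TPM in treated libraries only and passed the filter through them alone.

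Few of the secreted and surface signals to T cells were called. None of 12 tested chemokine and cytokine genes rose (2 higher and 1 lower at an unadjusted p under 0.05), and 24 of 36 listed were under the filter, 15 of them at 0 in all 6 libraries. *Cxcl10*, a T cell attractant, stood at 5.77, 4.81 and 3.08 TPM untreated and 4.86, 6.85 and 7.88 TPM treated, with wide and overlapping groups (log2 change 0.45, SE 0.207, adjusted p = 0.155). *Cxcl9* was at 0 except for 0.359 TPM in 1 treated library, and *Ccl5* was at 2.92, 3.78 and 3.91 TPM and 5.04, 2.81 and 4.71 TPM (log2 change 0.17, adjusted p = 0.52). *Cd274*, which encodes PD-L1, stood at 2.94, 2.85 and 3.75 TPM untreated and 4.37, 4.55 and 3.82 TPM treated. Its treated libraries lay above the untreated ones, but its log2 fold change of 0.33 (SE 0.112) did not pass the threshold (adjusted p = 0.0674, and 0.268 with the trend removed). Of the 12 checkpoint and ligand genes tested, *Lgals9* (galectin-9) rose and *Pvrl2*, a ligand of TIGIT and DNAM-1, fell by 0.47 (adjusted p = 0.0121; −0.25 with the trend removed). *Cd276* (B7-H3) had a value of −0.24 that was called only as deposited. *Ido1*, the tryptophan-degrading enzyme induced by IFNγ in many cells, was listed at 0 in all 6 libraries. Of 6 metabolic effector genes tested, 1 was called lower as deposited and none both ways (0 higher and 1 lower at an unadjusted p under 0.05).

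Among complement factors and protease inhibitors, 4 of 11 tested genes rose, 36.4% beside 1.99% of all tested genes. As deposited, 4 were called higher in each fit that left out 1 library. Of the 11, 1 reached 1 TPM in treated libraries only and passed the filter through them alone. *Serpinb9*, an inhibitor of granzyme B, went from 1.17, 1.24 and 1.44 to 3.82, 4.51 and 4.24 TPM (log2 change 1.18, SE 0.134, adjusted p = 0.000138), low in absolute level but without overlap. *C2*, a component of the classical pathway, was already abundant and rose from 71.2, 65.8 and 67.8 to 85.3, 85.2 and 91.5 TPM (log2 change 0.35, SE 0.0473, adjusted p = 0.000733). *C4b* and *C1ra* rose by 0.92 (adjusted p = 0.000366) and 0.92 (adjusted p = 0.000769), the first at no more than 1.97 TPM.

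In cell death genes 3 of 29 tested rose (10.3%, beside 1.99% of all tested genes), each of a different kind. *Mlkl*, the executioner of necroptosis, went from 41.7, 41.7 and 40.2 to 62.1, 70.6 and 72.4 TPM (log2 change 0.71, SE 0.0645, adjusted p = 1.36e-05). *Gsdmd*, the pore-forming protein of pyroptosis, rose by 0.57 (adjusted p = 0.0152) at no more than 2.48 TPM. *Mcl1*, an anti-apoptotic BCL2 relative, went from 71, 70.3 and 68.7 to 80.3, 84.7 and 80.4 TPM (log2 change 0.22, adjusted p = 0.0155). *Bbc3* (PUMA) was lower by a log2 fold change of −0.93 as deposited (adjusted p = 0.0201), with a GC content of 67.1%, and was not called with the trend removed (−0.43, adjusted p = 0.0928). The number of members called higher as deposited was 5 with all libraries, 4, 1 and 2 without treated replicates 1, 2 and 3, and 5, 3 and 2 without untreated replicates 1, 2 and 3. None of 17 NF-κB genes tested was called both ways (0 higher and 6 lower at an unadjusted p under 0.05 as deposited). *Nfkb2* and *Relb* were lower as deposited, by log2 fold changes of −0.36 and −0.48, and had −0.16 (adjusted p = 0.19) and −0.28 (adjusted p = 0.285) with the trend removed.

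**Figure D3:**
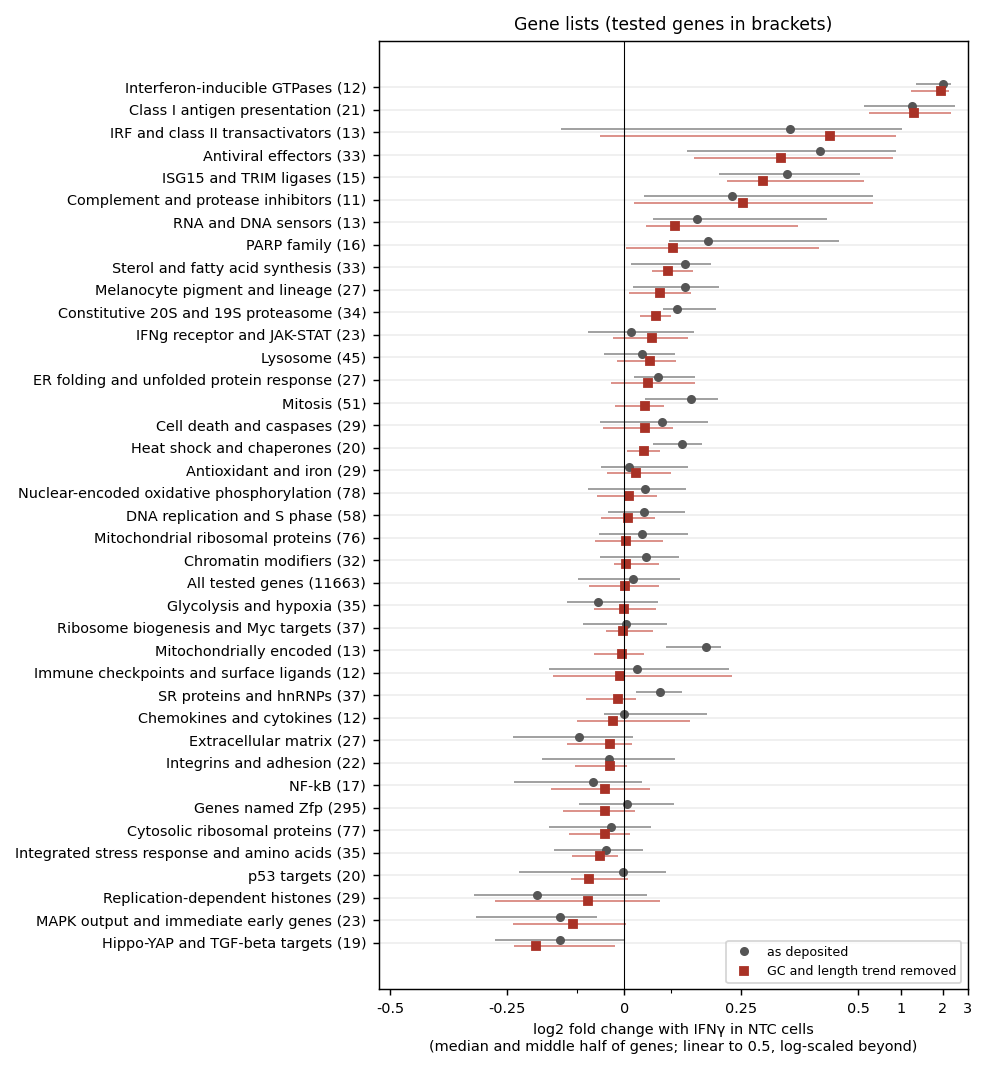
Median log2 fold change, treated against untreated NTC cells, over the tested genes of each list (dot or square) and the interquartile range (line), as deposited (grey) and with the GC and length trend removed (red). Lists with at least 10 tested genes are shown, ordered by the second value, and the x axis is linear up to 0.5 in either direction and log-scaled beyond. GTPases lie at 2.01 and the 19 Hippo-YAP and TGF-β targets at −0.14 as deposited.

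Of the 232 risen genes, 153 had a log2 fold change under 0.5, and of the 144 fallen genes, 102 had one above −0.5. Outside the interferon programmes the medians of the lists lay between −0.19 and 0.18 as deposited. Genes of the melanocyte lineage leaned upward: 6 of 27 tested rose, 22.2% beside 1.99% of all tested genes. None fell (2 lower at an unadjusted p under 0.05 as deposited, limma). Their median was 0.13 as deposited and 0.076 with the trend removed, beside 0.019 and 0.0020 for all tested genes. *Mitf*, the master regulator of the lineage, stood at 249, 226 and 236 TPM untreated and 271, 303 and 281 TPM treated (log2 change 0.27, SE 0.0469, adjusted p = 0.00579). *Met*, the receptor of hepatocyte growth factor and a target of MITF, went from 355, 347 and 349 to 415, 438 and 444 TPM (log2 change 0.30, SE 0.0451, adjusted p = 0.00175). Both had non-overlapping groups, were called in all 12 fits without 1 library, and had 0.21 and 0.23 with the trend removed. *Trpm1*, a channel whose intron holds a melanocytic miRNA, rose by 0.23, the melanosome receptor *Gpr143* by 0.25, *Rab27a*, which carries melanosomes outward, by 0.20, and *Cd63* by 0.19.

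The pigment enzyme *Tyr* and the regulator *Sox10* depended on the trend. *Tyr*, with a GC content of 37.2%, was called higher as deposited (0.18, adjusted p = 0.0301) and had 0.036 (adjusted p = 0.626) with the trend removed. *Sox10*, with a GC content of 62.7%, stood at 318, 334 and 310.2 TPM untreated and 277, 265 and 265 TPM treated, a log2 fold change of −0.25 (adjusted p = 0.0439) that changed sign to 0.076 (adjusted p = 0.402) with the trend removed. The number of melanocyte genes called higher as deposited was 10 with all libraries. It was 11, 4 and 2 without treated replicates 1, 2 and 3, and 10, 4 and 3 without untreated replicates 1, 2 and 3.

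In sterol and fatty acid synthesis, 4 of 33 tested genes rose, 12.1% beside 1.99% of all tested genes. The median was 0.13 as deposited and 0.093 with the trend removed. *Fdps*, which makes farnesyl pyrophosphate, went from 365, 379.7 and 388 to 443, 453 and 461 TPM (log2 change 0.26, SE 0.0372, adjusted p = 0.00121). *Sqle*, a rate-limiting enzyme of the later pathway, went from 104, 112 and 116 to 129, 135 and 130.5 TPM (log2 change 0.25, SE 0.0487, adjusted p = 0.00978). *Fdft1* (squalene synthase) and *Dhcr7* rose by 0.25 (adjusted p = 0.0184) and 0.27 (adjusted p = 0.0242). The regulator *Srebf2* had −0.19 as deposited and −0.059 with the trend removed. As deposited, 7 genes were called higher with all libraries, 7, 2 and 3 without treated replicates 1, 2 and 3, and 4, 4 and 3 without untreated replicates 1, 2 and 3.

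In protein folding in the ER, 3 of 27 tested genes rose, 11.1% beside 1.99% of all tested genes. Above 0 were 24 of the 27 as deposited and 19 with the trend removed, beside 6361 and 5920 of all 11663 tested genes. *Pdia3*, a disulphide isomerase that also serves the class I loading complex, went from 389, 437 and 432 to 494, 532 and 517 TPM (log2 change 0.30, adjusted p = 0.0126). *P4hb* and *Dnajb11* rose by 0.14 (adjusted p = 0.0286) and 0.17 (adjusted p = 0.0233). As deposited, 7 of these genes were called with all libraries, 8, 0 and 1 without treated replicates 1, 2 and 3, and 3, 6 and 3 without untreated replicates 1, 2 and 3. In cytosolic heat shock and chaperone genes, 6 of 20 were higher as deposited and 1, the chaperonin subunit *Cct5*, both ways (0.15). Both ways, that was 5% of the list, beside 1.99% of all tested genes.

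Subunits of the constitutive proteasome had small differences. Of 34 tested subunits of the 20S and 19S particles, 15 were higher as deposited, 44.1% beside 7.31% of all tested genes. Both ways 2 rose (5.88%, beside 1.99%), *Psma4* by 0.27 (0.17 with the trend removed) and the ATPase subunit *Psmc5* by 0.12. *Psmc5* was called in only 2 of the 12 fits without 1 library. The median of the list was 0.11, or 0.069 with the trend removed. The 15 calls became 14, 3 and 5 without treated replicates 1, 2 and 3, and 10, 3 and 4 without untreated replicates 1, 2 and 3. In redox and iron genes 2 of 29 rose, 6.90% beside 1.99% of all tested genes. *G6pdx*, which makes NADPH in the pentose phosphate pathway, went from 66.4, 71.9 and 71.2 to 85.9, 80.6 and 86.4 TPM (log2 change 0.27, SE 0.0434, adjusted p = 0.00321), and *Txn1* (thioredoxin) rose by 0.22 (adjusted p = 0.00458), or 0.14 with the trend removed.

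Cell cycle genes moved by little, and their calls followed the GC trend. Of 51 tested mitosis genes, 15 were higher and 1 lower as deposited (29.4% and 1.96%, beside 7.31% and 4.78% of all). Their median GC content was 46.7%, and with the trend removed the list's median went from 0.14 to 0.045. Both ways 2 genes rose, 3.92% beside 1.99% of all tested genes. Without treated replicates 1, 2 and 3 the 15 calls became 13, 2 and 1, and without untreated replicates 1, 2 and 3 they became 7, 3 and 2. *Hmmr*, a spindle protein gene, went from 41.9, 42.8 and 44 to 51.7, 54.5 and 54.3 TPM (log2 change 0.31, SE 0.0495, adjusted p = 0.00284), a change of 0.18 with the trend removed, and *Kif20a* rose by 0.23. *Top2a* had 0.21 as deposited and 0.07 (adjusted p = 0.188) with the trend removed, and *Mki67* 0.21 and 0.16 (adjusted p = 0.0502). Of 58 genes of DNA replication and S phase, none rose (16 higher at an unadjusted p under 0.05 as deposited, limma). The share that fell, 1.72%, was near the 1.23% of all tested genes. *Ccnd1*, encoding cyclin D1 and called in 8 of the 12 fits without 1 library, was the 1 that fell. It was not called as deposited without treated or untreated NTC replicate 2 or 3. It stood at 50.3, 50.6 and 52.4 TPM untreated and 45.4, 35.9 and 37.1 TPM treated (log2 change −0.37, SE 0.0837, adjusted p = 0.0174), with −0.33 after trend removal. Of 20 p53 targets, 2 fell, 10% beside 1.23% of all tested genes. None rose (2 higher at an unadjusted p under 0.05 as deposited, limma). *Cdkn1a*, the cell cycle inhibitor p21, fell by 0.43 (SE 0.108, adjusted p = 0.0261) from 72.8, 95.5 and 89.8 to 70.1, 61.1 and 59.1 TPM and was called in 8 of 12 fits without 1 library. *Zmat3* fell by 0.22 (adjusted p = 0.0171).

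The largest fallen group by count was that of the cytosolic ribosomal proteins, where 12 of 77 tested genes fell and 1 rose. The fallen genes made up 15.6% of the list, beside 1.23% of all tested genes. Over the whole list the shift was slight, with a median of −0.028 as deposited and −0.042 with the trend removed, and 43 of 77 below 0 as deposited. *Rps12* stood at 1923, 2222 and 2164 TPM untreated and 1574, 1299 and 1462 TPM treated (log2 change −0.54, SE 0.0841, adjusted p = 0.00227). The stalk protein gene *Rplp1* went from 4344, 4742 and 4685 to 3783, 3359 and 2782 TPM (log2 change −0.48, SE 0.0992, adjusted p = 0.0127). *Rpsa* went from 2554, 2516 and 2536 to 2234, 2174 and 2234 TPM (log2 change −0.20, SE 0.0379, adjusted p = 0.0101). All 3 were called lower in each of 12 fits without 1 library, and of these 3, *Rplp1* spread most between treated libraries.

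*Rps16* had the largest fold of the group and the widest spread, from 354, 532 and 454 TPM untreated to 305, 223 and 125 TPM treated (log2 change −1.11, SE 0.265, adjusted p = 0.0217), and treated replicate 3 was the lowest. The gene that rose was *Rps6*, from 68.3, 83.2 and 76.8 to 106, 107 and 99.4 TPM (log2 change 0.45, SE 0.0933, adjusted p = 0.0139). Ribosomal protein genes have many processed copies in the genome, and reads of 50 bp may have been split between a gene and its copies. When 1 NTC library was left out, 5 to 20 were called lower as deposited, beside 19 with all: 20, 5 and 5 without treated replicates 1, 2 and 3, and 13, 9 and 5 without untreated replicates 1, 2 and 3.

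Of 29 replication-dependent histone genes tested, 2 fell, 6.90% beside 1.23% of all tested genes, and 39 were under the filter in these poly(A)-selected libraries. Most histone mRNAs of this kind lack a poly(A) tail. *Hist1h4i* went from 11.8, 12.4 and 13.8 to 7.91, 6.37 and 4.93 TPM (log2 change −0.90, SE 0.173, adjusted p = 0.00978), and *Hist2h2be* fell by 0.58, with overlapping groups. The polyadenylated variant *H2afz* stood at 585, 650.4 and 606 TPM untreated and 502, 350.0 and 293 TPM treated (log2 change −0.72, SE 0.147, adjusted p = 0.0124). *H2afj* went from 37.6, 54.8 and 49.7 to 26.8, 20.7 and 11.1 TPM (log2 change −1.30, SE 0.289, adjusted p = 0.0167). In both, treated replicate 3 was the lowest library.

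In the list of Hippo-YAP and TGF-β targets, which also holds pathway components, 4 of 19 tested genes fell, 21.1% beside 1.23% of all. None rose (1 higher at an unadjusted p under 0.05, limma). The list mixes kinds of gene, so it gives no direction of signaling. The median was −0.14 as deposited and −0.19 with the trend removed, so it did not shrink with the GC trend. *Cyr61*, a secreted matrix protein and classical YAP target, went from 12.6, 14 and 14.4 to 10.3, 9.91 and 9.06 TPM (log2 change −0.45, SE 0.0736, adjusted p = 0.00342). *Wwtr1*, a component of the pathway that encodes the YAP relative TAZ, went from 61.7, 59.4 and 56.2 to 51.7, 52 and 51.5 TPM (log2 change −0.19, SE 0.0459, adjusted p = 0.023). *Lats2*, a kinase of the pathway that is also its target, fell by 0.27 (adjusted p = 0.0189). *Id2*, a target of TGF-β and BMP signaling, fell by 0.12 (adjusted p = 0.0437), with −0.21 after trend removal. It was called in only 4 of the 12 fits without 1 library. In all 4 genes every treated library was below every untreated one, as in 142 of all 144 fallen genes and 14.7% of all tested genes. As deposited, 6 of the list were called lower with all libraries, 6, 1 and 1 without treated replicates 1, 2 and 3, and 4, 1 and 2 without untreated replicates 1, 2 and 3.

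**Figure D4:**
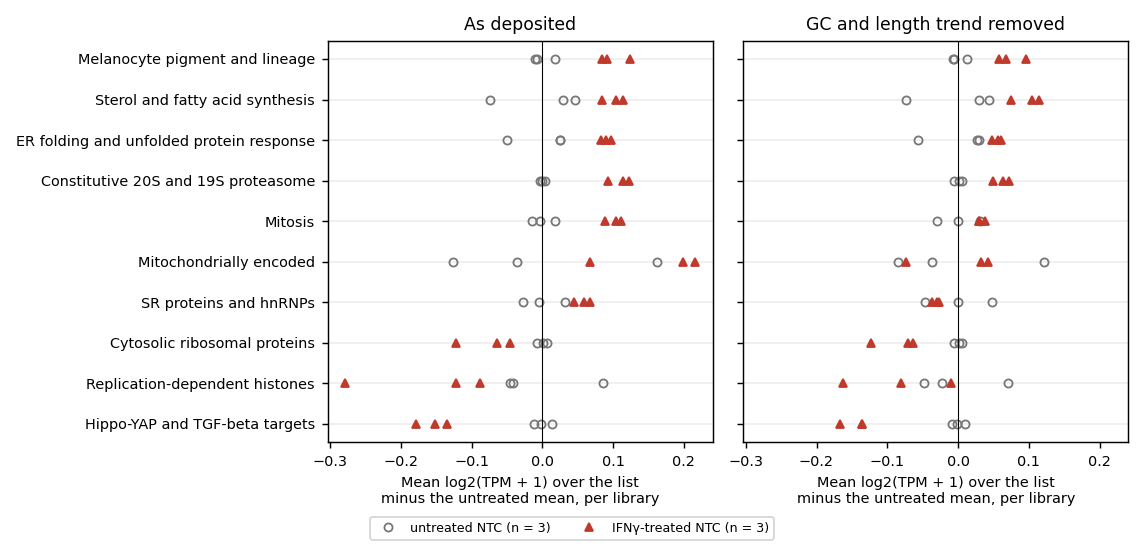
Mean log2(TPM + 1) over the tested genes of 10 lists in each NTC library, minus the mean of the 3 untreated libraries, as deposited (left) and with the GC and length trend removed (right). Open circles are 3 untreated and filled triangles 3 IFNγ-treated libraries. Hippo-YAP and TGF-β targets lie below the untreated libraries on both sides, while the treated SR proteins and hnRNPs pass from above the untreated mean to below it.

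The per-library means show which group shifts outlasted the correction. Melanocyte genes stood 0.08, 0.09 and 0.12 above the untreated mean in treated libraries as deposited and 0.06, 0.07 and 0.10 with the trend removed, outside the untreated range both times. Sterol and fatty acid genes stood at 0.08, 0.10 and 0.11 as deposited and 0.07, 0.10 and 0.11 with the trend removed. Mitosis genes went from 0.09, 0.10 and 0.11 to 0.03, 0.03 and 0.04, the last set inside or next to the untreated range. The 13 mitochondrially encoded genes, with a median GC content of 37.1%, went from a median of 0.18 to −0.0042, and none was called (4 higher and 0 lower at an unadjusted p under 0.05 as deposited). The 37 SR proteins and hnRNPs, splicing regulators with a median GC content of 43.9%, went from 0.077 with 5 called higher to −0.013 with 2 called lower. Among these, *Hnrnpa1* had 0.27 and 0.16 (adjusted p = 0.0576) with the trend removed, and *Clk1*, a kinase of SR proteins, had −0.19 and −0.34 (adjusted p = 0.00177).

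In the integrated stress response and amino acid genes 2 of 35 fell, 5.71% beside 1.23% of all tested genes. *Cebpb*, a basic leucine zipper factor, went from 8.59, 8.97 and 10.2 to 3.7, 4.68 and 2.19 TPM (log2 change −1.22, SE 0.175, adjusted p = 0.00126). Its GC content of 67.2% is high, and with the trend removed the value was −0.70 (adjusted p = 0.0309). *Shmt2*, a mitochondrial enzyme of serine and folate metabolism, went from 339, 330.0 and 336 to 288, 261 and 250.4 TPM (log2 change −0.33, SE 0.058, adjusted p = 0.00559), a change of −0.20 with the trend removed. Of 23 MAPK output and immediate early genes, *Ccnd1*, which is also on this list, was the 1 that fell both ways. That was 4.35% of the list, beside 1.23% of all tested genes. *Jund* had −0.92 (adjusted p = 0.0285) as deposited and −0.40 (adjusted p = 0.127) with the trend removed. Of the extracellular matrix genes, 2 of 27 fell, 7.41% beside 1.23% of all tested genes. *Sparc* went from 429, 417 and 429.9 to 356, 369 and 379 TPM (log2 change −0.21, SE 0.0349, adjusted p = 0.00412), and *Timp3* fell by 0.39 (adjusted p = 0.0369). Of 22 adhesion genes 1 fell, 4.55% beside 1.23% of all tested genes. The heparan sulphate proteoglycan gene *Sdc3* went from 8.79, 8.67 and 8.91 to 5.08, 5.12 and 5.78 TPM (log2 change −0.63, SE 0.0981, adjusted p = 0.00227).

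Single genes outside the lists fell too. *Sox4*, an SRY-related transcription factor gene of progenitor and tumour cells, went from 11.4, 13.9 and 14.4 to 7.91, 7.42 and 6.73 TPM (log2 change −0.76, SE 0.085, adjusted p = 0.000115), with −0.75 (adjusted p = 6.76e-05) after trend removal. Its relative *Sox11* went from 17.8, 24 and 23.7 to 16.4, 11.7 and 11.8 TPM (log2 change −0.68, SE 0.167, adjusted p = 0.0236). *Gng8*, a G protein gamma subunit gene, went from 14.6, 11.5 and 11.8 to 7.34, 6.56 and 4.9 TPM (log2 change −0.92, SE 0.131, adjusted p = 0.00125). *Gm11127*, a class I-like gene, went from 154, 149 and 143 to 111, 72.7 and 66.4 TPM (log2 change −0.87, SE 0.131, adjusted p = 0.00196), opposite in direction to the class I genes it resembles, and reads shared with them are uncertain. *AC125169.1* fell by 1.23 and *Gm20605* by 0.93, with adjusted p-values of 0.00212 and 0.00037.

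By change in mean TPM, which weighs abundant transcripts, and among the genes called both ways alone, *B2m* gained 1554 TPM. *Fabp5*, a fatty acid-binding protein gene, was next, from 868, 941 and 928 to 1143, 1185 and 1191 TPM (log2 change 0.36, SE 0.0396, adjusted p = 9.45e-05), a gain of 261 TPM. *H2-D1*, *Tmsb10*, *Dbi*, *Psme2*, *Bst2*, *Txn1*, *Cd63* and *Sub1* gained between 127 and 202 TPM. Of the losses, *Rplp1* and *Rps12* changed by −1283 and −658 TPM. *Slc38a6* went from 3940.3, 3698 and 3635 to 3113, 3266 and 3323 TPM (log2 change −0.22, SE 0.0437, adjusted p = 0.0122). *Prnp*, the prion protein gene, went from 1535, 1423 and 1385 to 1144, 1197 and 1199 TPM (log2 change −0.29, SE 0.0418, adjusted p = 0.00117). *Rpl8*, *Rpsa*, *Rplp0*, *Rps26*, the ribosomal protein pseudogene *Gm10275* and *H2afz* changed by between −372 and −233 TPM.

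A few genes were listed at 0 in all untreated NTC libraries and above 0.5 TPM in all treated ones. Beside *Tgtp1*, *Tgtp2* and *Psmb8*, these were *Apol9b* (1.07, 1.24 and 0.703 TPM treated), *Smyd1* (1.03, 1.12 and 1.03 TPM), *Gm9869*, *Olfr56*, *Efcab8*, *Irf8* and *Ush1c*, none of which exceeded 1.79 TPM. Untreated DKO libraries were not all at 0 for *Apol9b*, *Smyd1*, *Gm9869*, *Olfr56*, *Efcab8* and *Ush1c*, with *Smyd1* at 1.03 TPM in 1 of them. The annotated span of *Olfr56* covers *Tgtp1*, *Tgtp2* and *Ifi47*, so reads may be shared in these unstranded libraries. *Irf8*, a transcription factor gene of myeloid and other interferon-exposed cells, stood at 0.595, 0.832 and 0.684 TPM in treated libraries, too low to be tested.

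In the DKO libraries most genes called both ways in NTC cells had the same direction. The NTC and DKO fold changes share no library, but the NTC calls rest on a spread estimated over all 12 libraries. Of the 44 genes that rose by a log2 fold change of 1 or more in NTC cells, 43 were above 0 and 41 were called higher in DKO cells, 93.2% beside 0.677% of all tested genes. The exception below 0 was *AL807777.1*, a transcribed processed pseudogene with 4.85, 2.14 and 9.71 TPM untreated and 15.3, 27.7 and 45.3 TPM treated in NTC cells (log2 change 2.26, SE 0.459) and a DKO value of −0.77. Of the 153 risen genes under 0.5, 141 were above 0 in DKO cells, 92.2% beside 53.9% of all tested genes, and 9 were called. Of the 144 fallen genes, 125 were below 0, 86.8% beside 46.1% of all, and 7 were called (4.86% beside 0.103%).

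**Figure D5:**
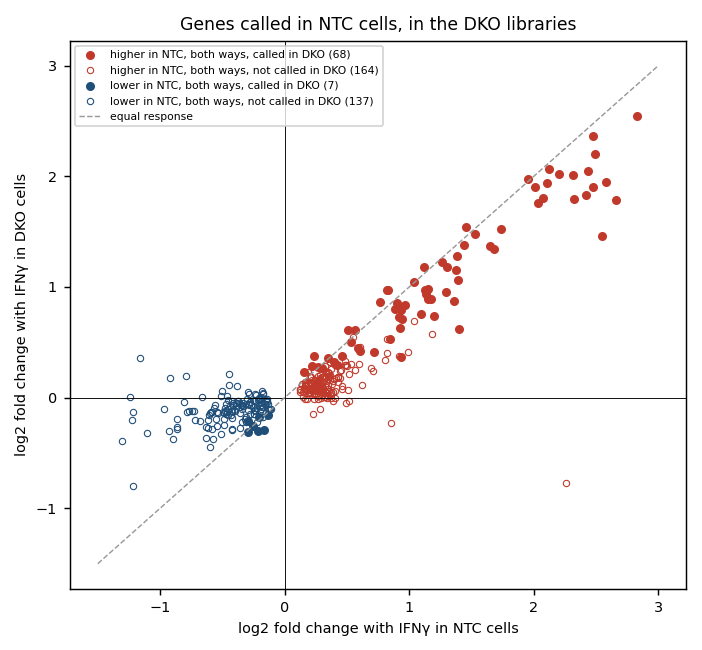
Log2 fold change with IFNγ in DKO cells (y axis) against that in NTC cells (x axis) for the 376 genes called both ways in NTC cells, 232 higher (red) and 144 lower (blue). Filled circles, 68 higher and 7 lower, were also called in DKO cells, and the dashed line marks equal values. Most points with a large NTC value lie near or under the line, and most fallen genes lie under 0 on both axes.

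Programme by programme, the GTPases were called higher in 10 of 12 genes in DKO cells too, class I genes in 14 of 21, antiviral effectors in 8 of 33 and melanocyte genes in 3 of 27. Of all tested genes, 0.677% were called higher and 0.103% lower in DKO cells, and 53.9% were above and 46.1% below 0. Among the GTPases 4, and among the class I genes 2, reached 1 TPM in treated libraries only. *Met* and *Trpm1* had DKO values of 0.27 (adjusted p = 0.00807) and 0.38 (adjusted p = 0.00106), and *Mitf* 0.15 (adjusted p = 0.254). Sterol and fatty acid genes were above 0 in 30 of 33 and ER folding genes in 26 of 27 without a call (9 and 10 higher, 0 and 0 lower at an unadjusted p under 0.05 with limma). Of the ribosomal protein genes, 72 of 77 were below 0 in DKO cells and 1 was called. The Hippo-YAP and TGF-β list had a DKO median of −0.011, with 12 genes below and 7 above 0. None of them was called in DKO cells (1 higher and 2 lower at an unadjusted p under 0.05, limma). *Prnp* and *Slc38a6* fell in DKO cells as in NTC cells, by 0.31 and 0.31 (adjusted p = 0.001 and 0.00189). *Cyr61* and *Sox4* had DKO values of 0.11 (adjusted p = 0.675) and −0.12 (adjusted p = 0.714). For *Sox4* the difference between the responses was 0.64 (adjusted p = 0.123), which did not pass the threshold, and 4 genes in all, 0.0343% of those tested, did.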

How the data were processed

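RNA-seq of poly(A)-selected, unstranded libraries was read from both ends over 50 bp. The authors estimated expression with RSEM 1.2.4 calling Bowtie, passed unaligned reads to TopHat, and deposited TPM per gene, under a name that says counts. The study states an approximate read depth common to its samples, but TPM do not carry the depth of each library, and any scaling between libraries is not given in the sources used here, so precision rests on the replicate spread. Without strand, overlapping genes share reads.

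A gene was tested if 3 of 12 libraries held 1 TPM or more. The test was limma 3.58.1 (R 4.3.3) on log2(TPM + 1), with 1 mean for each of 4 conditions, a variance trend and Benjamini-Hochberg adjustment over 11663 genes (threshold 0.05). The added 1 shrinks the fold change of low-expressed genes. The fit was tested on simulated data. Of the tested genes, 18 reached 1 TPM in treated libraries alone, 11 of them called higher, and 17 in untreated libraries alone, none called lower. GC content and length came from GENCODE M21, and their trend was removed from each library's deviations with splines of 5 degrees of freedom. Motifs were searched in RefSeq promoter windows. Python 3.11.15, numpy 2.4.6, pandas 2.3.3 and matplotlib 3.10.9 were used.

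The comparison and the 44 gene lists were chosen with earlier results of these data known. Named genes are the called list members with the largest change, the 15 largest called changes and 10 largest TPM changes in each direction, genes rising from 0 and genes whose response differed from that of DKO cells. List members named without a call, *Sox4* and *Sox11* were chosen after their values were seen. A result for 1 listed gene is not reported here. Alternatives were the trend removal, a replicate block, both together, 2 other scalings, no filter, a filter of 5 TPM, a pseudocount of 0.1, the 6 NTC libraries alone, and leaving out each library.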

Additional observations from a re-analysis of the deposited data

Results flagged for a closer look

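The response of 4 genes differed between NTC and DKO cells, by limma's test of the difference itself (adjusted p = 0.0256 for each). The difference is the DKO minus the NTC log2 fold change. It was −1.09 for *Psmb9* (SE 0.157), −0.63 for *B2m* (SE 0.0821) and −1.08 for *RP23-190G10.4* (SE 0.149). *RP23-190G10.4* lies over *Ifnar2* and *Il10rb* in the annotation, and its libraries do not separate these genes. It went from 2.42, 2.11 and 2.18 to 4.98, 4.41 and 5.14 TPM in NTC cells and from 2.79, 3.34 and 3.72 to 2.85, 2.3 and 2.82 TPM in DKO cells. For *Gfra4*, a GDNF family receptor gene, the difference was 1.24 (SE 0.175), from 1.51, 1.18 and 1.4 TPM to 0 in each treated NTC library, while the DKO libraries held 1.27, 1.48 and 1.14 TPM untreated and 1.6, 1.22 and 1.11 TPM treated. With the GC and length trend removed, *Psmb9*, *B2m* and *RP23-190G10.4* were still called, *Gfra4* was at 0.93 (adjusted p = 0.386), and *Tap1* and *H2-D1* were called as well, at −0.97 and −0.31. No difference was called with a replicate block (1151 genes had an unadjusted p under 0.05, limma), nor in 6 of the 12 fits without 1 library: without treated DKO replicate 1, without untreated DKO replicate 2 or 3, and without any 1 of the untreated NTC libraries.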

How the results depend on the processing

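The counts of genes called higher and lower in NTC cells, 853 and 558, were the values that moved most. They were 294 and 186 with the GC and length trend removed, 390 and 241 with a replicate block, and 171 and 90 with both. Scaling to the same total gave 525 higher and 639 lower, median-ratio scaling 571 and 671, and no filter on low values 572 and 325. The share of called genes that were higher was 60.5% as deposited, 46.0% with median-ratio scaling, 45.1% with the same total and 61.8% with the block, where the median of all genes was 0.019, −0.0023, −0.0098 and 0.019. Fits that left out 1 library gave 219 to 1254 higher and 99 to 766 lower, with the fewest calls without treated NTC replicates 2 and 3 (219 and 116, 220 and 99) and untreated NTC replicates 2 and 3 (262 and 132, 227 and 121). The count of genes with a different response in DKO cells, 4, was 10 with no filter, 1 with a filter of 5 TPM, 1 with trend removal and the block, 0 with the block alone (1151 at an unadjusted p under 0.05, limma), and 0 to 7 without 1 library (877 to 1419 unadjusted where it was 0). The sign reversed in 5 named genes. With the trend removed, *Bnip3l* was at −0.0061, *Gaa* at 0.14, *Rps15* at 0.038, *Sox10* at 0.076 and *Zfp513* at 0.0086. In this balanced design the block leaves every fold change as it was, so it could change no sign. Of 333 named genes, trend removal kept the call or its absence in 149, ended it in 164 and made one in 15, the block ended it in 132, both together in 200, and each other alternative that kept all libraries ended it in at most 88. Replicate numbers were not treated as pairs: the deviations of same-numbered treated and untreated NTC libraries correlated at −0.148, −0.0325 and −0.0757, and none correlated best with its own number. Of the genes called both ways, 192 of 232 higher and 100 of 142 lower non-overlapping ones were also called with the block, and 141 and 70 with the block and trend removal together. Since TPM keep no depth, the precision of low-expressed genes rests on 3 libraries a group.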

Other observations

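In other housekeeping programmes few genes were called once the GC and length trend was removed. Of 78 nuclear-encoded genes of oxidative phosphorylation, 11 were called higher and 5 lower as deposited (14.1% and 6.41%, beside 7.31% and 4.78% of all). With the trend removed 2 and 1 were called, where 2.52% and 1.59% of all tested genes were. Of 76 mitochondrial ribosomal protein genes the counts were 6 and 5, then 0 and 0 (11 higher and 8 lower at an unadjusted p under 0.05 with limma). Chromatin modifiers (32 tested) and ribosome biogenesis genes (37 tested) went from 2 higher and 1 lower each to 0 and 0 (5 and 4, and 2 and 4 unadjusted). Of 295 genes named Zfp, most of them encoding DNA-binding zinc fingers, 7 were higher and 14 lower as deposited. Both ways 2 fell, 0.678% beside 1.23% of all tested genes. The list's median went from 0.0065 to −0.04, beside 0.0020 for all tested genes. With the trend removed, 198 of the 295 were below 0, against 5743 of all 11663.

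Of 45 lysosomal genes tested, 2 rose (4.44%, beside 1.99% of all tested genes), *Ctsb*, the protease cathepsin B, from 295, 283 and 283 to 316, 313 and 327 TPM (log2 change 0.15, SE 0.0349, adjusted p = 0.0186) and the galactosidase gene *Gla* by 0.35. *Ctsb* was also called in DKO cells (0.23, adjusted p = 0.00326). As deposited, 5 lysosomal genes were called higher, and 0 or 1 without treated or untreated replicate 2 or 3. Of 35 glycolysis and hypoxia genes, 1 rose and 2 fell (2.86% and 5.71%, beside 1.99% and 1.23% of all tested genes), so the share that rose was near that of all genes. *Higd1a* rose by 0.23, while *Vegfa*, an angiogenic factor, and *Car9*, a carbonic anhydrase of hypoxic cells, fell by 0.25 (adjusted p = 0.0156) and 0.36 (adjusted p = 0.017). In the fallen genes called both ways, the lowest treated library was replicate 3 in 52.1%, against 31.7% of all tested genes.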
